A study of Zea mays with 10 samples.

Results

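The maize linker histone genes his1a and hon101 were represented by 52 of the 5400 cDNA clones on the arrays, 35 annotated to his1a (LOC541964) and 17 to hon101 (LOC541973). The clones of each gene were taken by the gene symbol in the platform annotation. Tests required 3 or more values on the arrays of each inbred, with both dye orientations present, and 34 clones of his1a and 16 of hon101 met this among 5357 clones in all. The members not tested were his1a clone 32, with 1 value on the H99 arrays and none on the B73 arrays, and hon101 clone 9, with 1 value on each.

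Linker histone H1 binds the nucleosome where DNA enters and leaves the histone core, and holds the DNA between neighbouring nucleosomes. It favours compact chromatin fibres, and plants carry several H1 genes whose products differ mainly in their tails. In dividing tissue H1 is needed in quantity to package newly copied DNA, and an immature ear is rich in dividing cells. Both his1a and hon101 encode proteins of this H1 family.

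The study set the F1 hybrid B73xH99 against each of its inbred parents, H99 and B73, to ask how expression in the hybrid relates to that of the parents. All material was immature ear at stage V15 from field-grown plants, with silks and ear apexes removed, and each genotype was a bulk of 10 individuals. Poly(A) RNA from at least 3 extractions per genotype was labelled separately for each array. H99 and F1 shared 5 arrays, B73 and F1 shared 5 arrays, and in each set arrays 1 to 3 had one dye orientation (forward) and arrays 4 and 5 the opposite one (reversed). The same RNA of each genotype was labelled again for every array, so all errors and p-values below measure labelling and hybridisation, not the spread between plants. Fewer cells of a type and less RNA per cell cannot be told apart in such bulk tissue. The values were ratios without levels, so markers of the ear could not be checked, and his1a cannot be ranked against hon101 in abundance.

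Each value was a deposited log2 ratio of the channels of an array, averaged over the 3 spots of a clone. Per the design text the ratio was F1 over inbred, but the files do not settle which genotype was the numerator, nor whether the reversed arrays were turned before deposit. Signs are therefore given as deposited, without saying in which genotype a gene was higher. L2 denotes the mean over the H99 arrays and L1 the mean over the B73 arrays. The dominance parameter d is (L1 + L2)/2, the distance of the hybrid from the midpoint of its parents, and the additive parameter a is (L2 − L1)/2, which sets the parents against each other through the hybrid. Missing spots made up 0.253% to 2.31% per array. Of the 1560 spot values of these genes 70 were missing. The 3 spots of a clone had a median SD of 0.0459 for his1a and 0.0486 for hon101 on the log2 scale, against 0.0525 over all tested clones.

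Averaged over their clones, neither gene departed detectably from a ratio of 1 in either comparison. The his1a means of 34 clones on the H99 arrays 1 to 5 were 0.01, −0.05, −0.04, 0.05 and 0.03 in log2, and on the B73 arrays 1 to 5 they were −0.06, −0.01, −0.12, −0.01 and 0.06. Values of both signs occurred on the arrays of each inbred, and the sets overlapped. L2 of his1a was −0.00036 ± 0.0436 (SD, n = 5) and L1 was −0.03 ± 0.0689 (SD, n = 5). In limma, fitted over gene means and unnamed clones, the adjusted p was 0.998 for L2 and 0.681 for L1.

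The hon101 means of 16 clones (15 on H99 array 5, where clone 13 had no value) on the H99 arrays 1 to 5 were −0.03, −0.03, −0.08, 0.02 and −0.04, and on the B73 arrays 1 to 5 they were 0.02, 0.02, 0.005, 0.11 and 0.03. The B73 values were positive on all 5 arrays and the H99 values negative on 4 of 5, but the sets overlapped, since H99 array 4 lay within the range of the B73 arrays. L2 of hon101 was −0.03 ± 0.0358 (SD, n = 5) with a limma adjusted p of 0.838, and L1 was 0.04 ± 0.0416 (SD, n = 5) with an adjusted p of 0.585.

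The 95% intervals of these means rest on limma's moderated variance. It draws the variance of each row over the arrays towards that of all 4763 gene means and unnamed clones. The intervals are therefore not set by the spread of these means alone. The SE of L2 was 0.0515 for his1a and 0.0497 for hon101, where the SDs over the 5 H99 arrays were 0.0436 and 0.0358. The intervals leave out the spread between clones. For his1a they ran between −0.11 and 0.11 for L2 and between −0.14 and 0.08 for L1. For hon101 they ran between −0.14 and 0.07 for L2 and between −0.07 and 0.14 for L1. The largest departure inside them was 1.08-fold for his1a against H99, in either direction. In the other 3 cases it was 1.1-fold, at the farther end of each interval only. With a call set at a limma adjusted p under 0.05, the means of his1a and hon101 gave 0 calls for L2, L1, d or a. At an unadjusted p under 0.05 the count was likewise 0. Of the means of the 213 named genes, 0.469%, 30.5%, 15% and 12.7% were called. Of the 4763 gene means and unnamed clones 0.987%, 40.4%, 24.1% and 19.5% were called, but most of these rows are single clones. With each row's own variance the adjusted calls of his1a and hon101 were again 0, and a of hon101 was the 1 value with an unadjusted p under 0.05. The parameter d was −0.01 for his1a (SE 0.0364, adjusted p = 0.788 in limma) and 0.002 for hon101 (adjusted p = 0.967), and a was 0.01 for his1a (SE 0.0364, adjusted p = 0.809) and −0.03 for hon101 (SE 0.0352, adjusted p = 0.512). Among the 213 named genes, those smaller in size than his1a numbered 2 for L2, 41 for L1, 27 for d and 24 for a, and those smaller than hon101 numbered 68 for L2, 48 for L1, 3 for d and 66 for a. Most named genes had far fewer clones than his1a (34) and hon101 (16). How averaging over many clones bears on these ranks and on the calls was not tested.

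**Figure D1:**
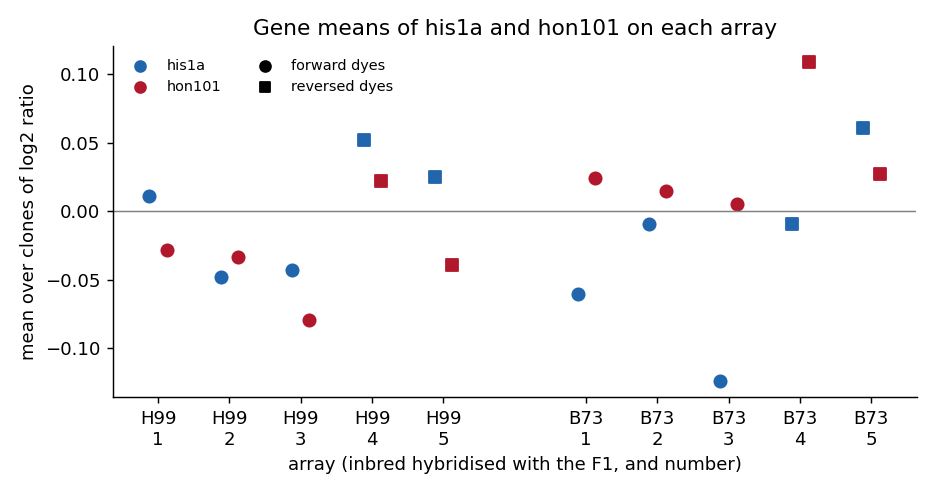
Mean log2 ratio over the tested clones of his1a (34) and hon101 (16, or 15 on H99 array 5) on each array, H99 arrays left of B73 arrays, with forward and reversed dye orientations marked. The his1a means lie on both sides of 0 for each inbred, whereas hon101 is above 0 on all 5 B73 arrays and below 0 on 4 of 5 H99 arrays.

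Within dye orientations the his1a mean was of opposite sign. On H99 arrays the forward mean was −0.03 and the reversed mean 0.04, and on B73 arrays the forward mean was −0.06 and the reversed mean 0.03. The hon101 means kept one sign per inbred, at −0.05 and −0.009 on the forward and reversed H99 arrays, and at 0.01 and 0.07 on the forward and reversed B73 arrays. Whether the orientation, the clones or the RNA set these values was not tested.

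The paired difference between the genes on each array did not pass its test either. His1a minus hon101 averaged 0.03 ± 0.0288 on the H99 arrays (SD, n = 5, positive on 4 of 5) with an exact two-sided sign-flip p of 0.125. On the B73 arrays it averaged −0.06 ± 0.0687 (SD, n = 5, negative on 4 of 5) with an exact p of 0.188. Over all 10 arrays it was −0.02 ± 0.0707, positive on 5 and negative on 5, with an exact p of 0.477. After adjustment over these 3 tests the p-values were 0.281, 0.281 and 0.477, and 5 arrays cannot give an exact p below 0.063.

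The clones behind the gene means did not carry one common value. On the B73 arrays, L1 of single his1a clones ran between −0.53 and 0.29, with an SD of 0.215 across clones, and 18 of 34 were positive. L1 of the hon101 clones ran between −0.21 and 0.37, with an SD of 0.181, and 10 of 16 were positive. The SD over all 5357 tested clones was 0.229. On the H99 arrays the clones lay closer together: L2 ran between −0.14 and 0.15 for his1a (SD 0.065) and between −0.09 and 0.06 for hon101 (SD 0.0379), against an SD of 0.112 over all tested clones. The hon101 clones were negative for L2 in 13 of 16 cases, and the his1a clones in 19 of 34, where 2727 of all 5357 tested clones were negative. L1 was larger in size than L2 in 42 of the 50 clones, 27 of his1a and 15 of hon101. The share of all tested clones with a larger L1 was not computed. Over all spots the B73 arrays were the wider as a set, with SDs between 0.2183 and 0.3616 against 0.1715 to 0.2275 on the H99 arrays.

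In the comparison with H99, 0 of 34 his1a clones and 0 of 16 hon101 clones were called by limma at an adjusted p of 0.05, where 1.23% of all tested clones were called (0.709% positive and 0.523% negative). At an unadjusted p of 0.05 the count was 1 of 50, and with each clone's own variance in place of the moderated one it was again 0. L2 averages dye orientations that did not go together on the H99 arrays (r = 0.0313 and the same sign in 49.15% of all 5357 tested clones). Opposite values cancel in such a mean, so here and below 0 calls for L2 do not show that hybrid and H99 were equal. The members called for L2 were 1 with forward arrays only, 4 with reversed arrays only and 1 with reversed H99 arrays turned. In the comparison with B73, 15 of 34 his1a clones and 5 of 16 hon101 clones were called, which is 40% of the 50 members against a background of 41.7%. For his1a 6 of these were positive and 9 negative, and for hon101 4 were positive and 1 negative, where 21.0% of all clones were called positive and 20.7% negative. The share of members called was thus close to that of the array as a whole, and clones annotated to one gene were called in both directions. Leaving out B73 array 3 lowered the count of 20 to 9, and leaving out B73 array 1 lowered it to 11, while the count over all clones was 1398 and 1467 in these cases, against 2235 with every array. If the reversed B73 arrays were not turned before deposit, turning them leaves 0 of the 20, and likewise 0 of the 2235 over all clones.

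**Figure D2:**
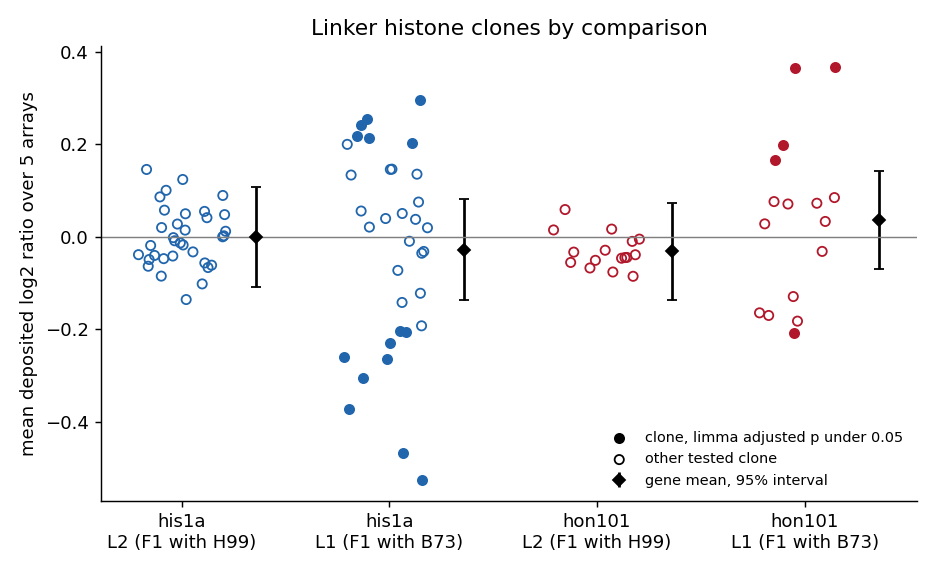
L2 (H99 arrays) and L1 (B73 arrays) of every tested clone of his1a and hon101 in log2, with filled points for clones called by limma and diamonds for the gene means with their 95% intervals. No clone is called for L2, a mean over dye orientations that did not go together on the H99 arrays. For L1 the called clones stand on both sides of 0 around gene means of −0.03 for his1a and 0.04 for hon101.

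With the arrays as deposited, the L1 farthest from 0 was that of his1a clone 24. It had values of 0.01, 0.05, 0.06, 0.09 and −0.14 on the H99 arrays 1 to 5, and −0.59, −0.55, −0.78, −0.39 and −0.32 on the B73 arrays 1 to 5. All 5 B73 values were below all 5 H99 values. Its L1 of −0.53 amounts to a 1.44-fold difference between hybrid and B73 (limma adjusted p = 2.7e-05), while its L2 was 0.01 (adjusted p = 0.963). With the reversed B73 arrays turned, its L1 was −0.24 (adjusted p = 0.333), smaller in size than those of clones 29 (−0.32), 6 (−0.31) and 8 (−0.25).

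The next in size was his1a clone 29, with −0.24, −0.18, 0.08, 0.19 and 0.05 on the H99 arrays and −0.86, −0.39, −0.72, −0.26 and −0.11 on the B73 arrays. The sets overlapped here, because H99 arrays 1 and 2 reached into the range of the B73 arrays. L1 was −0.47, a 1.38-fold difference (limma adjusted p = 0.00117). His1a clone 6 followed with an L1 of −0.37 (adjusted p = 0.00453), carried by 4 of its 5 B73 arrays at −0.43, −0.44, −0.84 and −0.30, against 0.14 on B73 array 5.

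Clones of his1a with a positive L1 included clone 31 at 0.29, clone 10 at 0.25 and clone 19 at 0.24. His1a clone 10 had 0.06, −0.15, −0.22, 0.08 and 0.03 on the H99 arrays and 0.21, 0.17, 0.38, 0.30 and 0.21 on the B73 arrays, which lay above all H99 values. Clones 24 and 10, annotated to the same gene, thus had opposite signs on the B73 arrays, each with all 5 arrays on one side of 0. A single sign on all 5 B73 arrays was found in 18 of the 50 members, where 37.7% of all tested clones had it. Of the 20 called for L1, 14 had it, but the call was made on the same B73 values and favours a single sign. The share among all clones called for L1 was not computed.

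For hon101 the largest L1 with the arrays as deposited belonged to clones 1 and 10. Hon101 clone 10 had −0.15, −0.12, −0.31, 0.14 and 0.06 on the H99 arrays and 0.42, 0.26, 0.45, 0.46 and 0.24 on the B73 arrays, again without overlap. Its L1 of 0.36, a 1.29-fold difference, had a limma adjusted p of 0.000746. Hon101 clone 1 had an equally large L1 of 0.37, but its B73 values ranged between −0.01 and 0.80 and its adjusted p was 0.0272. With the reversed B73 arrays turned, L1 was 0.04 in clone 1 and 0.09 in clone 10, and the largest in size was −0.18 in clone 13, without a call. The others called with the arrays as deposited were clones 8 and 12, positive at 0.17 and 0.20, and clone 16, negative at −0.21.

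For d, 7 of 34 his1a clones were called, 1 positive and 6 negative, and 1 of 16 hon101 clones, which was positive. These 8 clones are 16% of the members, against 25.2% of all tested clones (12.5% positive and 12.7% negative). For a, 6 of 34 his1a clones were called, 3 positive and 3 negative, and 1 of 16 hon101 clones, which was negative. These 7 clones are 14% of the members, against 20.3% of all tested clones (9.15% positive and 11.2% negative). Every clone called for d or for a was also among those called for L1, 3 were called for both d and a, and 30 of the 50 were called for none of the quantities. The arrays of H99 and B73 did not overlap in 6 member clones, where 11.8% of all tested clones had this property.

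The counts for d and a changed when single arrays were left out, among the members and over all clones. The 8 calls for d fell to 2 without H99 array 1, to 3 without H99 array 2, to 4 without H99 array 4 and to 5 without H99 array 5. Omitting B73 array 1 left 2 of them, omitting B73 array 2 left 5 and omitting B73 array 3 left 4. Over all clones the 1352 calls for d were 789 without H99 array 1 and 721 without B73 array 1, and ranged between 721 and 1731 over the 10 omissions. The 7 calls for a fell to 3 without H99 array 3 and to 3 without B73 array 1, where the 1089 calls over all clones fell to 649 and 593.

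The 7 clones called for a were his1a clones 24, 29, 1, 14, 19 and 10 and hon101 clone 10. The additive parameter was 0.27 in his1a clone 24 (SE 0.0469, limma adjusted p = 0.00214) and −0.22 in hon101 clone 10 (SE 0.0477, adjusted p = 0.0067). In his1a clone 1 the comparisons had opposite signs, with 0.12, 0.13, 0.31, 0.08 and −0.02 on the H99 arrays and −0.27, −0.19, −0.32, −0.21 and −0.03 on the B73 arrays. The sets of clone 1 did not overlap, and a was 0.16 (SE 0.0432, adjusted p = 0.0155). In his1a clone 14 the signs were the other way round, with an L2 of −0.07 and an L1 of 0.20, and a was −0.13 (adjusted p = 0.0302).

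The quotient of d and |a| places the hybrid between its parents: at a ratio of 1 in size the hybrid equals a parent, and near 0 it lies at their midpoint. By 95% Fieller intervals, 5 of the 7 clones were of the dominant class, with an interval that held a ratio of 1 in size and left out 0, as had 51.5% of the 1089 clones called for a in all. These were his1a clones 24, 29, 10 and 19 and hon101 clone 10. For his1a clone 24 the ratio was −0.956 with an interval between −1.67 and −0.539, and for hon101 clone 10 it was 0.654 with an interval between 0.191 and 1.46. An L2 near 0 gives a ratio near 1 in size, as in his1a clone 24 with an L2 of 0.01. L2 averages dye orientations whose H99 means correlated at r = 0.0313 over all tested clones. Whether the hybrid equals H99 in these clones was not tested. The intervals of his1a clones 1 and 14 held both values and gave no class, and 0 of the 7 were additive or overdominant with the arrays as deposited. Of the clones then called for a, 4 were additive and 1 partly dominant with the reversed H99 arrays turned, 4 were additive with forward arrays only, 2 were additive with own variances or with neighbouring clones subtracted, and 1 with scaled, quantile-normalized or weighted arrays or without H99 array 5 or B73 array 5. The 5 fell to 2 without H99 array 3 or B73 array 1, and to 3 without H99 array 2, H99 array 4 or B73 array 3.

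**Figure D3:**
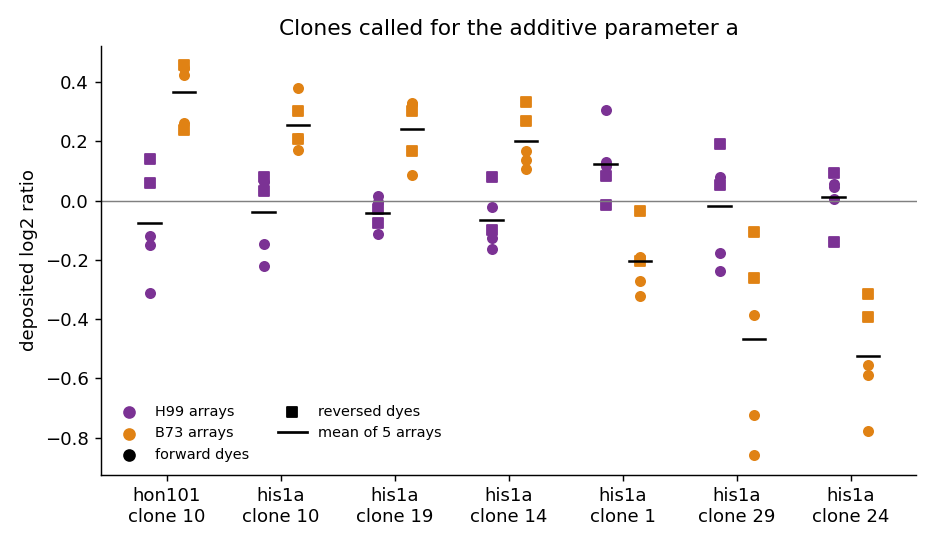
Log2 ratios on each array for the 7 clones called for the additive parameter a, H99 arrays left of B73 arrays within each clone. The B73 values of his1a clones 24 and 29 lie below 0 and those of hon101 clone 10 above 0 on all 5 arrays, while the H99 values of all 3 clones lie on both sides of 0.

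Clones of one gene did not vary together over the arrays. The median correlation between pairs of clones over the 10 arrays was 0.0472 within his1a (561 pairs), 0.00286 within hon101 (120 pairs) and −0.00407 between the genes (544 pairs), and −0.000136 over all pairs of tested clones. Single pairs ran between −0.905 and 0.935 within his1a. The most alike pair among the members was his1a clone 26 with hon101 clone 13 (r = 0.948), followed by his1a clone 3 with hon101 clone 1 (r = 0.946). All points share the same 10 arrays, and these values are descriptions.

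Across the member clones, forward and reversed values ran against each other on the H99 arrays and together on the B73 arrays. Across his1a clones, the means of forward and reversed H99 arrays correlated at r = −0.494 (n = 34), and across hon101 clones at r = −0.853 (n = 16), against 0.0313 over all 5357 tested clones. On the B73 arrays the same correlations were 0.648 for his1a and 0.565 for hon101, against 0.558 over all clones. The negative values rested in part on a few clones: without clones 3 and 31 of his1a r was −0.166, and without clones 1 and 5 of hon101 it was −0.569.

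Hon101 clone 1 had −0.30, −0.43 and −0.34 on the forward and 0.40 and 0.44 on the reversed H99 arrays. His1a clone 3 followed the same course with −0.22, −0.51 and −0.37 on the forward and 0.34 and 0.50 on the reversed H99 arrays. In both clones the orientations did not overlap, and their averages of −0.05 each hide arrays far from 0. Forward minus reversed was −0.78 in hon101 clone 1, −0.79 in his1a clone 3, 0.64 in hon101 clone 5 and −0.54 in his1a clone 31. A difference of more than 0.5 in size was thus found in 2 of 34 his1a clones and 2 of 16 hon101 clones on the H99 arrays, and in 2.76% of all tested clones. On the B73 arrays 0 members and 3.25% of all tested clones exceeded it. The medians of the clones up to 3 positions away differed between orientations by 0.05 next to hon101 clone 1, −0.02 next to his1a clone 3, 0.07 next to hon101 clone 5 and −0.09 next to his1a clone 31.

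**Figure D4:**
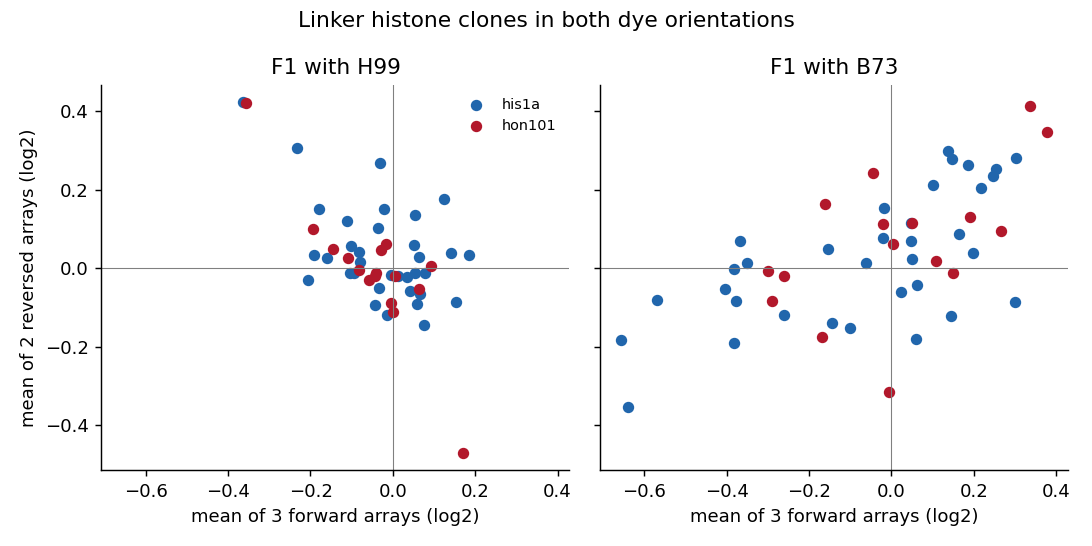
Mean log2 ratio of the forward arrays against that of the reversed arrays for each tested clone of his1a and hon101, H99 arrays in the left panel and B73 arrays in the right panel. The correlation is negative for H99 (r = −0.494 for his1a and −0.853 for hon101), with 1 hon101 clone at the lower right and 1 clone of each gene at the upper left, and positive for B73 (r = 0.648 for his1a and 0.565 for hon101).

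The place of a clone in the deposited order went along with L1 in his1a. L1 of the his1a clones correlated with the median L1 of the clones up to 3 positions away at r = 0.58 (n = 34, same sign in 23), and for hon101 r was −0.0835 (n = 16, same sign in 9). This correlation was not computed over all tested clones. His1a clones 28 and 29 stood at positions 4778 and 4781 of 5400, with L1 of −0.26 and −0.47 beside neighbour medians of −0.41 and −0.48. Being 3 positions apart, each of them entered the neighbour median of the other. Their likeness to their neighbours is therefore in part that of his1a with itself, and the r of his1a without them was not computed. His1a clones 14, 15 and 19, at 0.20, 0.22 and 0.24, likewise had neighbour medians of 0.29, 0.25 and 0.28. Hon101 clone 10, at 0.36, had a neighbour median of −0.22, and his1a clone 24, at −0.53, one of −0.09. His1a clones 12, 17 and 1, at −0.23, −0.21 and −0.20, had neighbour medians of the other sign, at 0.14, 0.17 and 0.08. After subtraction of the neighbours, L1 was 0.15 in his1a clone 28 and 0.01 in clone 29, where the subtracted medians share the overlap named above. It was −0.09 in his1a clone 14, −0.03 in clone 15 and −0.04 in clone 19. The part of array position in these clone values was not tested further.

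**Figure D5:**
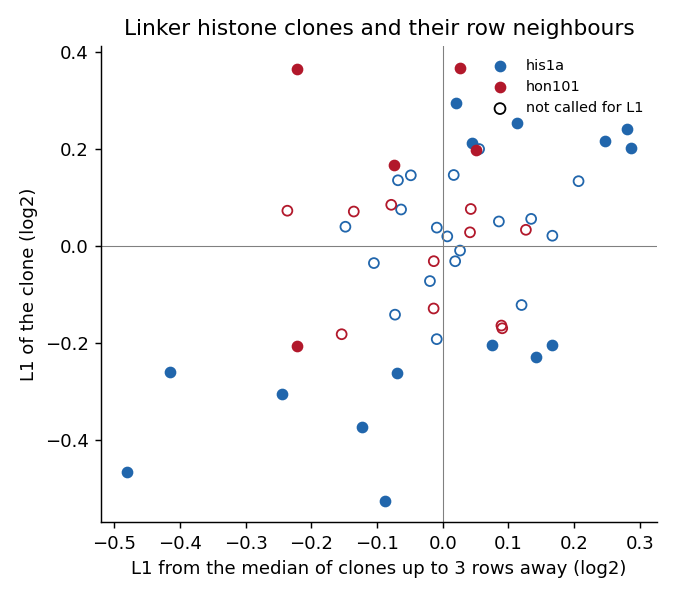
L1 of each tested clone of his1a and hon101 against the median L1 of the clones up to 3 positions away in the deposited order, both in log2. The his1a clones tend to follow the diagonal (r = 0.58), and his1a clones 28 and 29 each enter the neighbour median of the other. Hon101 clone 10 and his1a clones 24, 12, 17 and 1 are among those that stand apart from their neighbours.

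A further linker histone gene on the arrays, H1 (LOC542385, named his1 in RefSeq), was represented by 11 clones. Its mean was −0.03 for L2 and −0.02 for L1 (limma adjusted p = 0.867 and 0.812), and L1 of its single clones ran between −0.30 and 0.19. Of its 11 clones, 0 were called for L2 by limma and 2 for L1, both negative. At an unadjusted p under 0.05 the count for L2 was 1. With own variances the count for L2 was 2 unadjusted and 0 adjusted. Over all tested clones 1.23% were called for L2 and 41.7% for L1, 20.7% negative. L1 was positive in 6 of the 11 clones. For d and for a 1 clone each was called, both negative, where 25.2% and 20.3% of all tested clones were called. Over the 10 arrays the H1 mean correlated at r = 0.19 with his1a and at r = 0.445 with hon101, and his1a with hon101 at r = 0.136.

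Among the 69 other named genes with at least 3 clones, the means most like that of his1a over the 10 arrays were those of hsp70-4, a heat shock protein of the chaperone family (r = 0.842), LOC606438 (r = 0.747) and pdi, a protein disulfide isomerase of the endoplasmic reticulum (r = 0.698). Those most like hon101 were ANT-G2, an adenine nucleotide translocator of mitochondria (r = 0.832), LOC732740 (r = 0.798) and tua6, an alpha tubulin (r = 0.743). All of these are correlations over arrays that share dye, scan and RNA, given as descriptions.

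The other chromatin genes on the arrays were 16 named genes with 62 clones in all. For none of the quantities was a larger share of them called than of all named genes. For L2 0 of 16 were called by limma (1 at an unadjusted p under 0.05, and 0 with own variances), and 1 of the 213 named genes was (0.469%). The highest L2 was 0.09 in SDG123, a SET domain gene, and the lowest −0.18 in HD2b, a histone deacetylase gene of the plant HD2 type (adjusted p = 0.469 and 0.276). For L1 4 of 16 were called by limma, against 30.5% of the named genes. Positive were sdg110, likewise a SET domain gene, at 0.35 (adjusted p = 0.00162), and HMG11, a high mobility group gene, at 0.22 (adjusted p = 0.0418). Negative were hmg2, likewise a high mobility group gene, at −0.32 (adjusted p = 0.00287), and mbd106, of the methyl-CpG-binding domain family, at −0.21 (adjusted p = 0.0186). For d hmg2 was called at −0.20, where 15% of the named genes were called, and for a sdg110 at −0.22, where 12.7% were called. The median gene mean of the list was 0.005 for L2, 0.04 for L1, 0.005 for d and −0.009 for a, against −0.00087, 0.02, 0.02 and −0.006 over all named genes. Sdg110, HMG11 and hmg2 were each represented by 1 clone, so their values are of the kind that single his1a clones also took.

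Of the genes of dividing cells 4 were present, with 7 clones. For L1 the cell cycle kinase gene cdc2 was called positive at 0.18 (limma adjusted p = 0.0141) and the kinesin gene kin4 negative at −0.19 (adjusted p = 0.0315). These are 2 of 4, where 30.5% of the named genes were called. For d MCM6, of the replicative helicase, was called negative at −0.14 (adjusted p = 0.019), where 15% of the named genes were called. For L2 or a 0 of 4 were called, where 0.469% and 12.7% of the named genes were. At an unadjusted p under 0.05 the count was 1 of 4 for each. With own variances it was likewise 1 of 4 for each unadjusted, and 0 adjusted. The genes searched for as signs of other organs (zein, rbcs, cab and pollen genes) had no match among the named clones.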

How the data were processed

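Complementary DNA was labelled directly with Cy3 or Cy5, in a separate reaction for each channel of the 10 arrays, per the labels' protocols. The authors deposited 1 log2 ratio per spot; log2 is stated in the design text, and every array's median lay within 0.001 of 0. For background correction, normalization and scanner, the sources used here name no method. The design text used SAM and an F-test. Here, each 3 successive spots were averaged to a clone, and gene names came from the platform annotation (811 of 5400 clones, 213 genes, of which 208 matched RefSeq's gene table for assembly Zm-B73-REFERENCE-NAM-5.0, a source of names only). With limma 3.58.1 under R 4.3.3, one model with a mean for each inbred was fitted to all 10 arrays, over 5357 clones or over 4763 gene means and unnamed clones, with Benjamini-Hochberg adjustment and a threshold of 0.05. The fit was tested on simulated data. The number of arrays limits the precision. Replicate numbers did not pair the arrays of H99 and B73 (correlations of same-numbered arrays between −0.293 and 0.309). Members and gene lists were chosen with earlier results of these data known. Genes named are the members, the 3 genes most like each, and of the lists the highest and lowest per quantity; other list genes called, his1 and clones described singly were picked after their values were seen. Alternatives turned or left out arrays, added a dye term, scaled or weighted arrays, subtracted neighbouring clones and changed filters.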

Additional observations from a re-analysis of the deposited data

Results flagged for a closer look

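Among 44 sets of 5 arrays examined, 2 held an array that stood apart from the other 4, where chance gives about 1 in 20. The hon101 mean on B73 array 4 was 0.11, with a gap to the nearest array that made up 0.788 of the range. Hon101 clone 8 on H99 array 3 was −0.13, with a gap of 0.736 of the range.

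The ratios of the H99 and B73 arrays differed, by limma's test of a, in his1a clones 24 (0.27), 29 (0.22), 1 (0.16), 14 (−0.13), 19 (−0.14) and 10 (−0.15) and in hon101 clone 10 (−0.22).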

How the results depend on the processing

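The 8 gene mean values (L2, L1, d and a of each gene) passed no threshold under 26 alternatives, with a lowest limma adjusted p of 0.107 for a of hon101 with each row's own variance. With reversed arrays only, the his1a mean was 0.0259 for L1 and 0.0323 for d, and L1 was 0.0245 with the median over clones. With reversed B73 arrays turned, alone or with those of H99, L1 of hon101 was −0.0182. His1a minus hon101 was −0.00683 on the H99 arrays with reversed H99 arrays turned, alone or with those of B73, and 0.0192 over all arrays with the median over clones.

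Of 50 clones, 0 were called for L2, but 1 with reversed H99 arrays turned, 1 with forward arrays only and 4 with reversed arrays only, an alternative added after seeing the data. The 20 calls for L1 became 0 with reversed B73 arrays or both sets turned, 9 with reversed arrays only, 7 with arrays scaled to one spread and 9 with quantile normalization. The 8 calls for d became 0 with B73 or both turned, 4 with H99 turned, 3 scaled, 3 quantile, 14 with neighbours subtracted, 2 with own variances and 20 with array weights. The 7 calls for a became 0 with B73 or both turned and with reversed arrays only, 13 with H99 turned, 15 with forward arrays only, 12 with a dye term, 4 scaled, 4 quantile and 12 weighted. The 5 dominant clones became 0 with B73 or both turned and with reversed arrays only. They became 10 with a dye term, 3 scaled, 2 quantile and 10 weighted. Over all tested clones, the calls for L1 and a moved in the same direction as among the members under each alternative listed. Those for d did too, except with neighbours subtracted, where they fell over all clones. For L2, a smaller share of members than of all clones was called with forward arrays only. The share of members was the larger with reversed arrays only or reversed H99 arrays turned.

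Signs of called clones changed for L1 of his1a clone 17 (0.0128, reversed arrays only) and of his1a clone 14 with B73 or both turned (−0.0378). With neighbours subtracted, L1 turned in his1a clones 14 (−0.0853), 15 (−0.0296), 19 (−0.0395), 28 (0.155, called at an adjusted p of 0.0385) and 29 (0.0143) and in hon101 clone 16 (0.0145), d turned in his1a clones 28 (0.0569) and 29 (0.0762), and a in his1a clone 14 (0.0222). His1a clones 28 and 29 each entered the neighbour median of the other. With both sets turned, d of hon101 clone 10 was −0.0346. The causes were not tested.

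Leaving out 1 array at a time gave 0 to 0 calls for L2, 9 to 23 for L1, 2 to 11 for d, 3 to 9 for a and 2 to 7 dominant clones. The his1a mean then ran from −0.01 to 0.01 for L2, −0.05 to −0.004 for L1, −0.03 to −0.002 for d and 0.002 to 0.03 for a, and the hon101 mean from −0.05 to −0.02, 0.02 to 0.05, −0.007 to 0.008 and −0.05 to −0.02. His1a minus hon101 ran from 0.02 to 0.04 on H99 arrays, −0.09 to −0.05 on B73 arrays and −0.03 to −0.004 overall. With the replicate block, though the numbers do not pair the arrays, 6 clones were called for d and 7 for a, and 13 of the 15 values called for d or a kept their call. Tested as single spots, 52 of 150 (34.7%) passed for L1 and 0 for L2, against 37.4% and 0.785% of all spots.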
